A study of Mus musculus with 4 samples.

Results

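The genes described are 10 markers of T cells and cytotoxic lymphocytes, Cd3d, Cd3e, Cd3g, Cd4, Cd8a, Cd8b1, Nkg7, Gzma, Gzmb and Prf1, out of 22180 genes measured in mouse liver. They were chosen by name, each through the probe set that the platform annotation pairs with that symbol and no other, and each had 1 such probe set. The groups were Nrg4 knockout (KO) and wild type (WT) male mice, all on a steatohepatitis (NASH) diet for 20 weeks from an age of 3 months, with livers taken in the random-fed state. Nrg4 encodes neuregulin 4, a soluble signal of the EGF-like family that activates ErbB receptors. Each genotype was represented by 2 pools of liver RNA, each on its own Affymetrix Mouse Gene ST 2.1 array. No strain, knockout allele or number of animals per pool is stated, and the spread between pools is not the spread between animals.

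T cells recognise antigen through a receptor whose signal is carried by the CD3 chains, encoded by Cd3d, Cd3e and Cd3g. CD4 and CD8 are coreceptors that bind MHC class II and class I molecules and divide T cells into helper and cytotoxic classes. Cytotoxic T cells and natural killer (NK) cells kill through granules that hold perforin, which opens the target membrane, and granzymes, the proteases that enter through it. In steatohepatitis, lymphocytes are among the cells that enter the liver, where CD8 T cells have been tied to liver damage.

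None of the 10 genes passed the test between KO and WT livers, and 6 of them lay close to the median of all probe sets, where signals are dim. Cd3g had the largest difference, 1.07 ± 0.33 on the log2 scale (SE, 2 pools per genotype; limma, adjusted p = 0.501), while the partner chains Cd3e and Cd3d gave -0.42 ± 0.41 and 0.08 ± 0.21. Cd4 was at -0.40 ± 0.20 and Cd8a at 0.36 ± 0.20. The cytotoxic genes Nkg7, Gzma, Gzmb and Prf1 gave differences between -0.31 and -0.02. All differences are KO minus WT on the deposited log2 scale, fitted by limma over all 22180 genes with Benjamini-Hochberg adjustment and a threshold of 0.05. Over those genes 0.0316% were called (7 genes), 0.0135% as higher and 0.018% as lower in KO, and 0 of 10 is near that background. At an unadjusted p under 0.05 there was 1 gene of the 10, Cd3g, higher in KO, against 7.85% of the 22180 genes in either direction, 4.77% higher and 3.08% lower.

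The 4 arrays had medians of 0.64 and 0.53 in the KO pools and 0.52 and 0.56 in the WT pools, with a lowest value of -1.12 and a highest of 11.9. Where 0 lies on this scale is unknown, and no detection calls were used. The median of all probe sets, 0.54, therefore serves as the mark for dim values, and a gene within 0.5 of it is called near the median, as 42.6% of the 22180 genes were. Near the median, differences can be compressed, so no folds are given. The level of Nrg4, which checks the genotype labels, was 0.93 in both KO pools, against 2.54 and 2.30 in the WT pools (limma, adjusted p = 0.182). The labels do not say which exons the knockout removes, so the position of this probe set relative to them is unknown. The label of the tissue was checked with Alb, the albumin gene of hepatocytes, which had 10.7 and 10.8 in the KO pools and 10.9 and 10.9 in the WT pools.

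Of the 10 genes, 6 lay near the median of all probe sets and 4 lay more than 0.5 above it. Cd3d, Gzma and Gzmb had means below the median, by 0.21, 0.24 and 0.28. Cd4, Cd8a and Prf1 were near it from above, by 0.13, 0.13 and 0.32. Nkg7 and Cd8b1 were just outside the limit, at 0.52 and 0.62 above the median, and Cd3g and Cd3e were at 0.87 and 1.12 above it. With a filter that keeps genes whose mean reaches the median, 7 of the 10 genes would be tested, which leaves out Cd3d, Gzma and Gzmb. These are distances from a common mark, since values of different probe sets are not comparable as amounts of RNA.

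**Figure D1:**
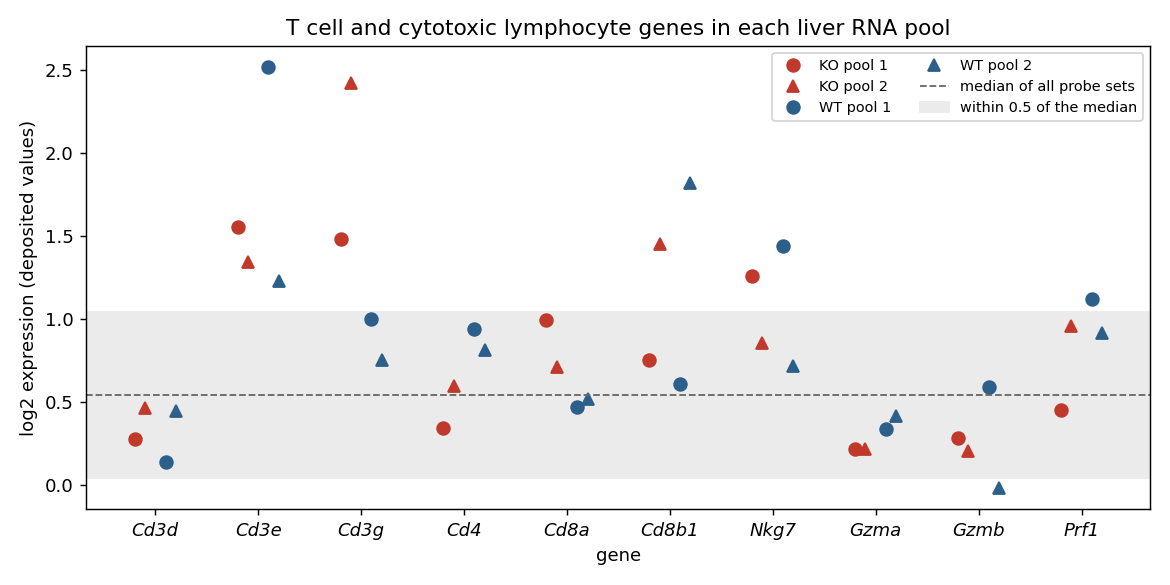
Deposited log2 expression (vertical axis) of the 10 genes (horizontal axis) in 2 KO pools (red) and 2 WT pools (blue), with circles for pool 1 and triangles for pool 2. The dashed line is the median of all probe sets, 0.54, and the grey band covers 0.5 on each side. The 2 WT values of Cd3e lie 1.29 apart, farther than the KO and WT means of Cd3e or Cd3g do.

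The CD3 chains are encoded next to each other, and Cd3g and Cd3d are read in opposite directions from starts that lie 1355 bases apart in RefSeq's GRCm38.p6 annotation. The 250 bases before each start are shown because these 3 genes encode parts of 1 receptor. Whether their differences between the genotypes are unlike was not tested. Capitals mark matches, on either strand, to motifs of factors that act in lymphocytes. The letters searched were CAGGAA for the ETS family of factors. They were AGATAA for GATA factors such as Gata3. They were CAGGTG for the E-box bound by E proteins. They were TGTGGT for the core bound by RUNX factors. The TATA box was searched as TATAAA beside these. The sequences are from RefSeq, given 5′ to 3′ on the strand of the gene.
Cd3g, chr9:44980432-44980681, minus strand: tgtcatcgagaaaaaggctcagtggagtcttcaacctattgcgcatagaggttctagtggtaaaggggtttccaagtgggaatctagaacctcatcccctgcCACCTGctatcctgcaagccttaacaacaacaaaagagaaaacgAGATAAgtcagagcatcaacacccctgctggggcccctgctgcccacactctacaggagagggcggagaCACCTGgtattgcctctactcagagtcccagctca
Cd3d, chr9:44981536-44981785, plus strand: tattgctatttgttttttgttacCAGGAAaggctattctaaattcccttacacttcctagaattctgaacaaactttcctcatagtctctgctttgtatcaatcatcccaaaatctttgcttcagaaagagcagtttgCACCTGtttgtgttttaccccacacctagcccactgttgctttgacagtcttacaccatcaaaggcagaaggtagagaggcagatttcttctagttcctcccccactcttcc
Cd3e, chr9:45009612-45009861, minus strand: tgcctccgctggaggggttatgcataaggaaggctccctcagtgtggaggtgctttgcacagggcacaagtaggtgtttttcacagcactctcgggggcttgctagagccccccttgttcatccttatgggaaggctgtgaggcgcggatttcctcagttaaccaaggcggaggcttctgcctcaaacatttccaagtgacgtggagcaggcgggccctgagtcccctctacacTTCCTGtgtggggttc
Cd3g held 2 E-box matches and 1 GATA-type match, Cd3d held 1 ETS-type and 1 E-box match, and Cd3e held 1 ETS-type match. No marked matches overlap, and the RUNX core and TATA box letters are in none of the 3 windows. Among 32851 promoter windows of the same length, 25.7% held the ETS-type letters, 17.2% the E-box, 14.0% the RUNX core, 12.4% the TATA box and 9.99% the GATA-type letters. A match is a description of the letters and no evidence of binding. Of the 10 genes, 8 had an entry in the promoter table, and Cd4 and Cd8b1 had none.

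Cd3g, the gamma chain, had log2 values of 1.48 and 2.42 in the KO pools, against 1.00 and 0.75 in the WT pools. Both KO pools lay above both WT pools, and KO pool 2 was the highest by 0.94. The difference of 1.07 ± 0.33 had a 95% interval of 0.28 to 1.87 before adjustment and an unadjusted p of 0.0161 by limma. It was 0.60 without KO pool 2 and 1.54 without KO pool 1. The WT mean of Cd3g was 0.33 above the median of all probe sets.

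Cd3e, the epsilon chain, had 1.55 and 1.35 in the KO pools, against 2.52 and 1.23 in the WT pools. WT pool 1 stood above the other 3 pools, and the genotypes overlapped. The difference was -0.42 ± 0.41 with a 95% interval of -1.42 to 0.57 (limma, adjusted p = 0.864). Its sign rested on WT pool 1: it was 0.22 without that pool and -1.07 without WT pool 2 (limma, adjusted p = 0.980 and 0.385).

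Cd3d, the delta chain, had 0.28 and 0.46 in the KO pools, against 0.14 and 0.44 in the WT pools. The genotypes overlapped, and every value was below the median of all probe sets. The difference was 0.08 ± 0.21, with a 95% interval of -0.43 to 0.59 (limma, adjusted p = 0.951). The 3 chains thus had no common order of the pools: the highest pool was KO pool 2 for Cd3g and Cd3d and WT pool 1 for Cd3e.

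Cd4, the helper T cell coreceptor, had 0.35 and 0.60 in the KO pools, against 0.94 and 0.81 in the WT pools. Both KO pools lay below both WT pools. The difference was -0.40 ± 0.20, with a 95% interval of -0.89 to 0.08 (limma, adjusted p = 0.715). The KO mean was 0.07 below the median of all probe sets.

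Cd8a, the alpha chain of the cytotoxic T cell coreceptor, had 0.99 and 0.71 in the KO pools, against 0.47 and 0.52 in the WT pools. Both KO pools lay above both WT pools, whose mean was 0.05 below the median of all probe sets. The difference was 0.36 ± 0.20, with a 95% interval of -0.13 to 0.84 (limma, adjusted p = 0.754). Cd8b1 encodes the beta chain that pairs with the alpha chain on most CD8 T cells. Its values were 0.75 and 1.45 in the KO pools, against 0.61 and 1.82 in the WT pools. In each genotype pool 2 was higher than pool 1, by 0.70 in KO and 1.21 in WT, and the genotypes overlapped. The Cd8b1 difference was -0.11 ± 0.43, with a 95% interval of -1.16 to 0.94 (limma, adjusted p = 0.967). With KO pool 1 left out it was 0.24, and with WT pool 2 left out 0.49, against -0.46 with KO pool 2 left out and -0.72 with WT pool 1 left out.

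Prf1, which encodes perforin, had 0.45 and 0.96 in the KO pools, against 1.12 and 0.91 in the WT pools. The genotypes overlapped, and KO pool 1 was the lowest. The difference was -0.31 ± 0.24 (limma, adjusted p = 0.822), or -0.06 without KO pool 1 and -0.56 without KO pool 2. A second probe set, shared by Prf1 and the mitochondrial gene COX2 (cytochrome c oxidase subunit II) and left out by the rule, had 9.46 and 9.77 in the KO pools and 9.79 and 9.47 in the WT pools. Which of the 2 genes that signal measures is not given in the files.

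Gzma, the granzyme with trypsin-like specificity, had 0.22 and 0.22 in the KO pools, against 0.34 and 0.42 in the WT pools. Both KO pools lay below both WT pools, at levels below the median of all probe sets in all 4. The difference was -0.16 ± 0.19, with a 95% interval of -0.61 to 0.29 (limma, adjusted p = 0.887). Gzmb, the granzyme that cleaves after aspartate and activates caspases, had 0.28 and 0.20 in the KO pools, against 0.59 and -0.02 in the WT pools. The WT pools bracketed both KO pools, and the difference was -0.04 ± 0.25, with a 95% interval of -0.66 to 0.57 (limma, adjusted p = 0.979). It was 0.26 without WT pool 1 and -0.35 without WT pool 2.

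Nkg7, a granule membrane protein of NK and cytotoxic T cells, had 1.26 and 0.86 in the KO pools, against 1.44 and 0.72 in the WT pools. Pool 1 was the higher in both genotypes, and the WT pools again bracketed the KO pools. The difference was -0.02 ± 0.30, with a 95% interval of -0.74 to 0.70 (limma, adjusted p = 0.991). Its sign was positive without KO pool 2 (0.18) and without WT pool 1 (0.34).

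**Figure D2:**
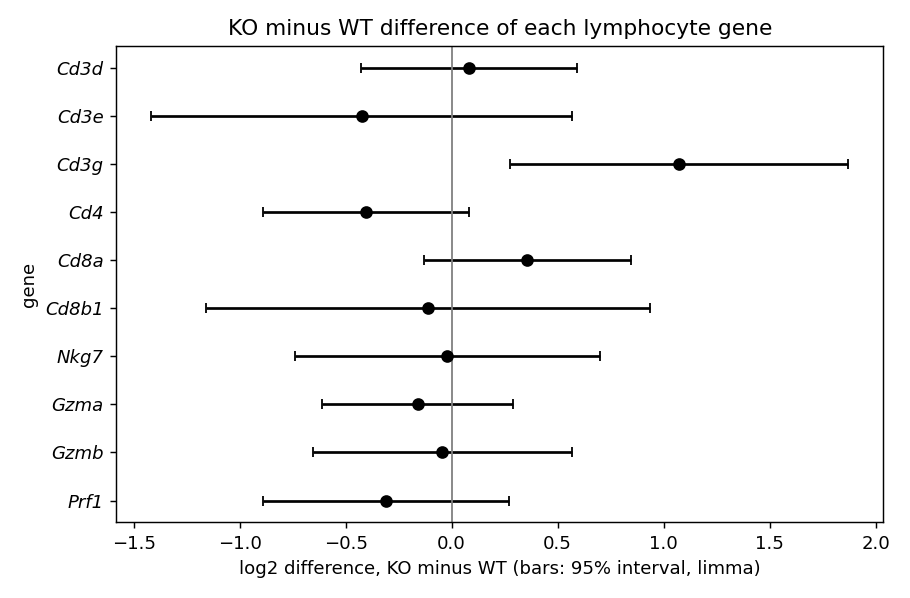
Log2 difference, KO minus WT (horizontal axis), for each of the 10 genes (vertical axis). Points are limma estimates and bars are 95% intervals before adjustment over 22180 genes. The interval of Cd3g, 0.28 to 1.87, is the one of the 10 that does not reach 0.

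Over the 10 genes, 3 differences were above 0 and 7 below, with a median of -0.08, where the median over all 22180 genes was 0.02. The 10 genes do not share a sign, and the median took either sign when a WT pool was left out, being 0.07 with WT pool 1 left out and -0.23 with WT pool 2 left out. The pools of the genotypes did not overlap for 4 of the 10 genes, of which Cd3g and Cd8a were above in KO and Cd4 and Gzma below. Over all genes the same was true of 37.9%, with 20.9% above and 17.0% below, and of 33.9% of the genes near the median. A share of 4 in 10 is close to that background. The mean level of the 10 genes was 0.76 and 0.92 in the KO pools, against 0.92 and 0.76 in the WT pools. In RNA of whole liver, fewer cells of a type and less RNA per cell cannot be told apart.

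**Figure D3:**
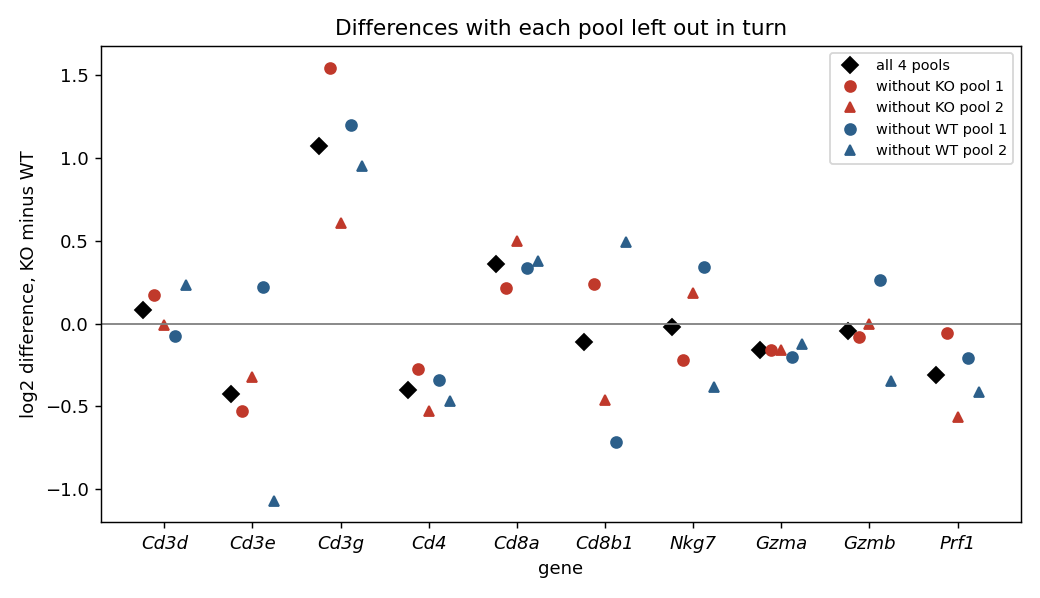
Log2 difference, KO minus WT (vertical axis), for each of the 10 genes (horizontal axis) with all 4 pools (black diamonds) and with each pool left out in turn (red, a KO pool left out; blue, a WT pool left out). Cd3g, Cd8a, Cd4, Gzma and Prf1 keep their sign in these 5 fits, while Cd3d, Cd3e, Cd8b1, Nkg7 and Gzmb take either sign.

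The width of the intervals shows what these arrays could not resolve. For Cd4, Cd8a, Gzma and Prf1 the intervals reach no lower than -0.89 and no higher than 0.84. For Cd3e and Cd8b1 they reach -1.42 and -1.16, because the WT pools differed by 1.29 and 1.21. The intervals of genes near the median describe the measured values, which can understate a difference in RNA. An exact permutation test of 2 pools against 2 cannot give a p under 0.333.

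No other gene of T cell receptor signalling or the T cell surface passed the test either. Of 40 listed genes, 31 were measured through a probe set of 1 symbol and 22 of these were near the median. None of the 31 was called in either direction, and the median difference was 0.10. It was 0.17 over the genes whose mean reaches the median of all probe sets. Over Lcp2 and Themis, which lie more than 1 above that median, it was 0.78. At an unadjusted p under 0.05 by limma there was 1 gene of the 31, against 7.85% of all 22180 genes. That 1 gene was Themis, which tunes receptor signalling during T cell development, at 4.38 and 3.54 in the KO pools, against 2.36 and 3.34 in the WT pools (difference 1.11 ± 0.41, SE). The next smallest p-values belonged to Cd2, an adhesion receptor, at 0.48 ± 0.24 and Cd27, a costimulatory receptor, at 0.35 ± 0.19. Zap70, the kinase that binds the phosphorylated CD3 chains, was at 0.12 ± 0.23, and Lat, the adaptor it phosphorylates, at 0.17 ± 0.22. The defining genes Trac, Trbc1, Trbc2, Cd247 and Lck were not paired with a single-symbol probe set and were not analysed here.

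Transcription factors of T cells gave a median of 0.04 over 12 measured genes, 10 of them near the median of all probe sets. The list median was -0.02 with KO pool 2 or WT pool 1 left out, 0.11 with KO pool 1 left out and 0.19 with WT pool 2 left out. For Tox, which alone lies more than 1 above the median of all probe sets, the difference was 0.45. None of the 12 genes was called, and 0 of 12 had an unadjusted p under 0.05 by limma, against 7.85% of all 22180 genes. Tbx21, which directs the Th1 and cytotoxic programmes, was at 0.12 ± 0.21. Its relative Eomes was at -0.07 ± 0.26 and Foxp3, the factor of regulatory T cells, at -0.12 ± 0.28. The smallest p-values were those of Ikzf3 at 0.40 ± 0.22, Satb1 at 0.31 ± 0.19 and Zbtb7b, which directs the CD4 lineage, at 0.23 ± 0.19.

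Among 18 other genes of cytotoxic function, none was called, and the median was 0.19, or 0.083 with WT pool 2 left out. An unadjusted p under 0.05 by limma was found for 3, all higher in KO, where 4.77% of all 22180 genes were. Gzmd, a granzyme of the Gzmb cluster, had 0.84 and 0.53 in the KO pools, against -0.09 and -0.19 in the WT pools. Its difference was 0.82 ± 0.21 (limma, adjusted p = 0.411), and that of the neighbouring Gzmf was 0.63 ± 0.25. Both are near the median, the granzymes of this cluster are alike in sequence, and their probe sets may measure relatives too. A probe set shared by Gzme and Gzmd went the other way, with 0.18 and -0.18 in the KO pools and 0.35 and 0.35 in the WT pools. Serpinb9, an inhibitor of granzyme B that protects cells from their own granules and is also expressed by myeloid cells, had 2.56 and 2.03 in the KO pools, against 1.24 and 1.48 in the WT pools. Its difference was 0.93 ± 0.25 (adjusted p = 0.429 by limma). Ifng, the interferon of Th1 and NK cells, was at 0.08 ± 0.21 and Fasl, the death ligand, at 0.28 ± 0.22, both with means below the median of all probe sets.

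Receptors of NK and innate lymphoid cells gave a median of 0.22 over 25 measured genes, 20 of them near the median of all probe sets. The list median was 0.094 with WT pool 1 left out and 0.37 over the genes whose mean reaches the median of all probe sets. Over Tyrobp and Fcer1g, which lie more than 1 above that median, it was 0.45. None of the 25 was called, and 3 had an unadjusted p under 0.05 by limma, all higher in KO, where 4.77% of all 22180 genes were. Fcer1g, a signalling chain shared by NK and myeloid cells, had 6.09 and 6.23 in the KO pools, against 5.50 and 5.55 in the WT pools, a difference of 0.63 ± 0.19. Il2rb, the interleukin 2 and 15 receptor chain of NK and memory T cells, had 1.25 and 0.96 in the KO pools, against 0.40 and 0.55 in the WT pools, a difference of 0.63 ± 0.21. For these 2 genes, named for their small p-values, both KO pools lay above both WT pools. The same was true of 7 of the 25 genes and of 20.9% of all 22180 genes. In 2 of the 25 both KO pools lay below, as in 17.0% of all genes. Klri2, a lectin-like NK receptor, was at 0.71 ± 0.28. The NK receptors Ncr1 and Klrb1c were at -0.01 ± 0.22 and 0.48 ± 0.41.

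By root mean square distance over the 4 arrays, with each gene centred on its own mean, Zap70 (0.083), Runx3 (0.105), Cd6 (0.116) and Ctsw (0.123) lay nearest to the mean profile of the 3 CD3 chains among 86 genes of these 4 lists, whose median distance was 0.281. The mean profile averages chains that differ among themselves, at -0.03 and 0.27 in the KO pools and 0.08 and -0.33 in the WT pools. Since these values are small, a gene that varies little between pools also lies near the profile, whatever the order of its pools.

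Genes common to all leukocytes had a median difference of 0.40 over 20 genes, each with a mean above that of the median probe set. None was called by the adjusted threshold, and 7 of 20 had an unadjusted p under 0.05 by limma, all higher in KO. Of all 22180 genes, 4.77% were higher and 3.08% lower at that unadjusted threshold. Ptprc, which encodes CD45, had 5.12 and 5.02 in the KO pools, against 4.55 and 3.95 in the WT pools, a difference of 0.82 ± 0.25. Coro1a, an actin regulator of leukocytes, was at 0.89 ± 0.21, and the integrin chains Itgb2 and Itgal were at 0.96 ± 0.25 and 0.76 ± 0.22. Of the 20 differences, 17 were above 0 and 3 below, the lowest at -0.55. The list's mean level was 2.97 and 3.11 in the KO pools, against 2.58 and 2.69 in the WT pools. Whether this list differs from the 10 lymphocyte genes was not tested.

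Markers of other cells that a liver sample holds were read in the same way. Macrophage and dendritic cell genes had a median of 0.21 over 19 genes (0.35 with a filter at the median of all probe sets or 1 above it). Their mean level was 3.05 and 2.98 in the KO pools, against 2.81 and 2.92 in the WT pools. At an unadjusted p under 0.05 by limma, 3 were higher and 1 lower in KO, against 4.77% and 3.08% of all 22180 genes. Adgre1, which encodes the macrophage antigen F4/80, was at 0.14 ± 0.21, the scavenger receptor Marco at -2.37 ± 0.32, Cd14 at 1.32 ± 0.19 and the integrin chain Itgax at 0.99 ± 0.27. B cell genes had a median of 0.17 over 11 genes (0.042 with WT pool 1 and 0.064 with KO pool 1 left out), with Cd79a, a chain of the B cell receptor, at 0.52 ± 0.19, the inhibitory receptor Cd22 at 0.55 ± 0.19 and Spib at 0.31 ± 0.25. The B cell list averaged 0.81 and 0.67 in the KO pools, against 0.52 and 0.62 in the WT pools. Neutrophil genes had a median of -0.04 over 11 genes (from -0.12 to 0.044 with 1 pool left out). Of these, 10 were below the median of all probe sets, and the other 1 had a difference of 0.15. The neutrophil list had a mean level of 0.31 and 0.30 in the KO pools and 0.30 and 0.41 in the WT pools. The neutrophil genes S100a9, S100a8 and Mpo were at -0.47 ± 0.25, -0.23 ± 0.24 and 0.24 ± 0.19. Hepatocyte genes had a median of -0.07 over 15 genes (0.028 with quantile normalization, and from -0.17 to -0.026 with 1 pool left out) and a mean level of 8.42 and 8.50 in the KO pools, against 8.61 and 8.63 in the WT pools, with Pck1 at -0.63 ± 0.19, Tat at -0.43 ± 0.20 and Cps1 at -0.39 ± 0.19. No gene of these lists was called, and the part of any of these cells in the values of the lymphocyte genes was not tested.

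Chemokines that attract lymphocytes, and their receptors, had a median of 0.11 over 15 genes, with none called. That median was -0.075 with KO pool 2 left out, 0.045 with WT pool 1 left out and 0.33 with KO pool 1 left out, and 0.48 over the genes that pass either filter on dim values. Cxcl16, the ligand of the chemokine receptor Cxcr6, was at 1.20 ± 0.20 (limma, adjusted p = 0.248). Ccr2, a receptor of monocytes and some T cells, was at 0.73 ± 0.21 and Cxcl13, which attracts B cells, at -0.43 ± 0.19. Cxcr6 and Cxcr3, chemokine receptors of effector T cells chosen after their values were seen, were at -0.22 ± 0.22 and -0.24 ± 0.19. Both were below the median of all probe sets in all 4 pools. Ccr6, Ccr9 and Cxcr5, receptors of the same list, were at 0.36 ± 0.27, 0.11 ± 0.21 and -0.01 ± 0.21. The chemokines Cxcl9, Cxcl10 and Cxcl11 were at 0.48 ± 0.28, 0.22 ± 0.28 and 0.49 ± 0.24. Of the 15 differences, 8 were above 0 and 7 below.

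**Figure D4:**
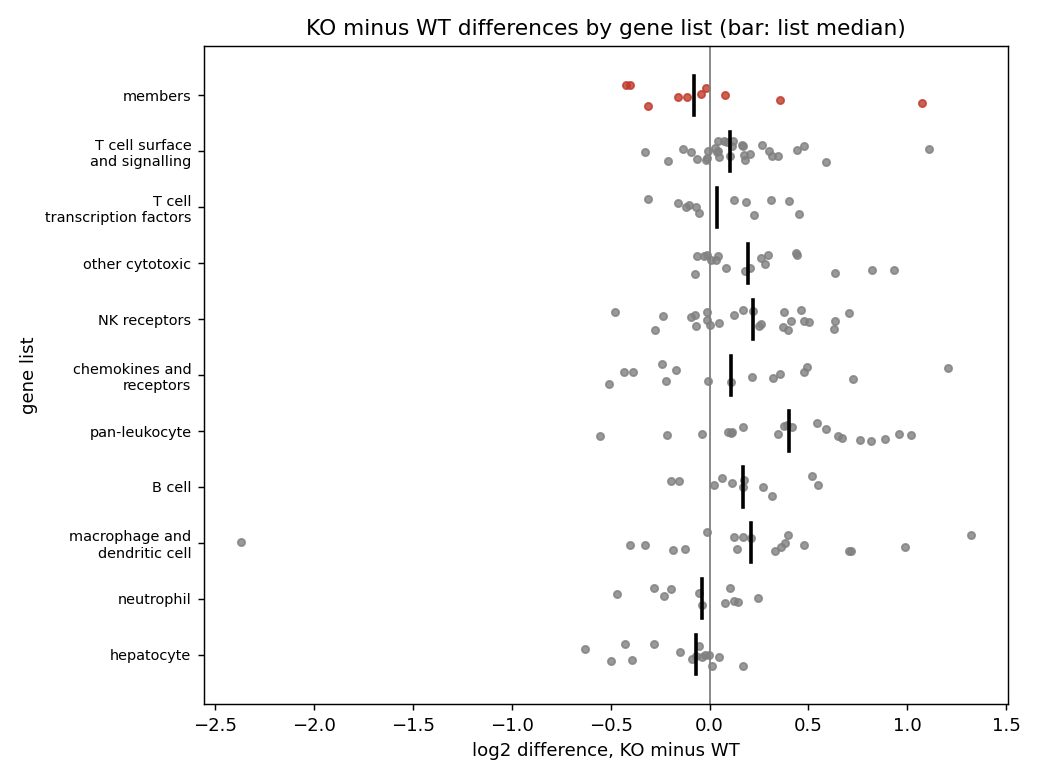
Log2 difference, KO minus WT (horizontal axis), of each measured gene, by gene list (vertical axis), with the 10 lymphocyte genes in red at the top and vertical bars for list medians. Points are spread vertically at random for legibility. The medians run from -0.08 for the 10 genes to 0.40 for the pan-leukocyte list.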

How the data were processed

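Liver RNA of 2 Nrg4 KO and 2 WT pools was hybridised to 4 arrays after labelling of 400 ng per pool, per the labels. The deposited values are log2 expression of 41345 probe sets. RMA, oligo and limma are named in the submitters' processing notes, without versions or order. RMA corrects background, equalises arrays and summarises probes on a log2 scale. The genome build is not stated there. The zero point of the scale is unknown. The platform annotation paired 23521 probe sets with 1 symbol, 1814 with several and 16010 with none. The probe set of highest mean was kept per gene, which left 22180 genes, none filtered.

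The genotypes were compared with limma (version 3.58.1, R version 4.3.3; lmFit and eBayes, 2 residual and 4.33 prior degrees of freedom), with Benjamini-Hochberg adjustment. The fit was tested on simulated data with known changes. Named genes are the 10 members, Nrg4, a set of defining markers, the 3 genes with the smallest p of each other list, and the 4 nearest to the CD3 profile. Probe sets of several symbols, and genes named beyond these, were named after their values were seen. The members and lists were chosen with earlier results of these data known. Scan dates and slides were not used here. The number of arrays limits the precision, and p-values rest on the spread between pools, which may be partly technical. That spread is not the gene's own alone, since eBayes draws each gene's variance towards a value common to all genes.

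Alternatives varied the filter, variance model, scaling, probe set choice, replicate block and the pools included.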

Additional observations from a re-analysis of the deposited data

Results flagged for a closer look

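Probe sets paired with several symbols took no part in the comparison, and 8 of them hold a listed lymphocyte gene. In 2 of the 8 both KO pools lay above both WT pools, as in 20.9% of all genes. In 1, shared by Gzme and Gzmd, both lay below, as in 17.0% of all genes. The probe set shared by Ccdc22, Foxp3 and Ppp1r3f had 2.52 and 2.33 in the KO pools, against 2.08 and 1.59 in the WT pools, a difference of 0.59 that was not tested. The probe set of Foxp3 alone was at -0.12 ± 0.28 (SE). The probe set shared by Klra3 and Klra9 had 0.45 and -0.12 in the KO pools, against -0.12 and -0.12 in the WT pools. Its difference of 0.29 rests on KO pool 1 and was not tested. KO pool 2, at -0.1156, was barely above WT pool 1, at -0.1157.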

How the results depend on the processing

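None of the 10 lymphocyte genes passed the adjusted threshold in any of the 13 alternatives in which it was tested, where adjusted p ran from 0.385 to 0.999 by limma. Of 118 values of single members under the alternatives, 110 kept their sign and 8 took the other, all with 1 pool left out. With 1 pool left out, Cd3d ran from -0.073 to 0.23 (below 0 without KO pool 2, at -0.012, and without WT pool 1), Cd3e from -1.07 to 0.22 (above 0 without WT pool 1) and Gzmb from -0.35 to 0.26 (above 0 without WT pool 1). Cd8b1 ran from -0.72 to 0.49 (above 0 without KO pool 1, at 0.24, and without WT pool 2) and Nkg7 from -0.38 to 0.34 (above 0 without KO pool 2, at 0.18, and without WT pool 1). The number of members at an unadjusted p under 0.05 ran from 0 to 2 with 1 pool left out (Cd3g and Cd3e without WT pool 2), and the members' median from -0.23 to 0.074. With a filter 1 above the median of all probe sets, Cd3e alone was tested, so that the count was 0 and the median -0.42. Over all genes, 7 were called, against 83 with a variance that follows intensity, 11 with the replicate block and 0 to 16 with 1 pool left out (0 without either KO pool, 16 without WT pool 1); the cause was not tested. Deviations of pools with the same replicate number from their genotype means correlated at -0.04 over 12458 genes. A correlation over all these genes cannot show whether such pools share a batch. The replicate block, which changed no member's call, left Cd3g at 1.07 (limma, adjusted p = 0.439). With probe sets of several symbols included, Prf1 was read from the one shared with COX2 and was at -0.02. Of 129 medians of the other gene lists under the alternatives, 102 moved by no more than the spread between pools and 27 moved further; those of the T cell transcription factor, chemokine, neutrophil and hepatocyte lists took either sign. Dim signal limits 6 of the 10 genes.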
